A study of Homo sapiens with 44 samples.

Results

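IL-17A was set directly against IL-1β in Ccd-18Co, an established line of human colon fibroblasts, by bulk RNA-seq. The comparison held 8 of the 44 libraries of the series, namely the 4 titled IL17A and the 4 titled IL1B, each numbered 1 to 4. A further 4 libraries of unstimulated cells were used only to say which genes each cytokine moved. All 3 groups were the same line, kept without serum for 72 h and then given the cytokine, or none, for 24 h. The labels give IL-17A at 10 ng/ml and IL-1β at 0.1 ng/ml, while a figure legend of the study states a lower IL-1β dose. Each cytokine was given at 1 dose and the doses differed, so a difference between the cytokines cannot be told apart from a difference between the doses. The model is a single line without leukocytes or epithelium. The sources used here do not say that the replicates were separate cultures, so p-values measure the spread between these samples, which may be technical.

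IL-1β binds IL1R1 and its accessory chain and signals through MyD88 and IRAK kinases to NF-κB and MAP kinases. IL-17A binds the IL17RA/IL17RC receptor and signals through the adaptor Act1. It is known as a weak activator of transcription that also stabilises short-lived mRNAs, many of them encoding chemokines for neutrophils, and its transcripts often depend on IκBζ, the product of NFKBIZ. In the inflamed gut both cytokines act on fibroblasts, which answer with chemokines, cytokines and matrix-degrading enzymes.

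Library totals were 1208396 to 2213424 estimated counts with IL-17A, 1620541 to 2095807 with IL-1β and 1365019 to 1725354 without stimulation, and 9513 genes passed the filter on low counts. At these depths 3 counts, the most that a count of 0 allows, corresponded to 1.39 to 2.40 CPM (read counts normalised to library size) with IL-17A and 1.51 to 1.99 CPM with IL-1β, for counting error only. All 9 fibroblast markers were detected, with summed levels of 35093 to 37334 CPM with IL-17A and 24040 to 32405 CPM with IL-1β, and the epithelial markers EPCAM, KRT19 and KRT20 were at 0. The 6 epithelial markers summed to 8.75 to 15.0 CPM unstimulated, 0 to 3.12 CPM with IL-17A and 1.51 to 3.89 CPM with IL-1β, with KRT18 averaging 10.2, 1.03 and 1.39 CPM, and the 4 endothelial markers to at most 2.65 CPM. KRT18 was called lower with both cytokines (edgeR, adjusted p = 0.00346 for IL-17A and 0.00121 for IL-1β). It therefore counts below among the genes lowered by both. Leukocyte markers summed to 1.72 to 6.41 CPM with IL-17A and 3.24 to 15.9 CPM with IL-1β, with CD3E, MS4A1, ITGAM and S100A8 at 0, and the part of these other cell types' markers in any difference was not tested. IL1R1, the signalling receptor for IL-1β, averaged 26.9 CPM without stimulation, 53.0 with IL-17A and 52.9 with IL-1β, and neither change passed the test (adjusted p = 0.154 and 0.0672). IL17RA reached at most 11 counts in any of the 12 libraries and IL17RC at most 3, so their levels were not measurable at this depth.

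The unstimulated libraries were not uniform, which bears on every value set against unstimulated cells. Measured over all genes with enough counts, replicate 1 differed most from the others. Its chi-square per degree of freedom was 11.1, 25.2 and 16.0 against replicates 2, 3 and 4, while the remaining pairs gave 5.57 to 9.71. Among the genes that IL-1β raised, replicate 4 stood out. Unstimulated replicate 4 was the highest of its 4 libraries in 61 of the 140 genes that IL-1β raised, against 18, 12 and 40 for replicates 1 to 3, and it held 554 CPM of CXCL8 where the others held 19.7 to 85.1. The IL-1β libraries were not uniform either, since replicates 1 and 2 were the lowest of 4 in 55 and 49 of those genes and replicates 3 and 4 in 20 and 16. The direct comparison of IL-17A with IL-1β uses no unstimulated level. The comparisons of each cytokine with unstimulated cells share the same 4 libraries, so a common shift in those libraries moves both.

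In the direct comparison 121 genes differed at an adjusted p under 0.05 and a log2 difference above 1.5 (edgeR quasi-likelihood test, Benjamini-Hochberg over all genes tested). Of these, 80 were higher with IL-1β (0.841% of the genes tested) and 41 were higher with IL-17A (0.431%). Without the threshold on size, 177 were higher with IL-1β (1.86%) and 146 with IL-17A (1.53%). The distance between the group means over the 500 most variable genes was 33.6 on the log2 scale, the longest of the 35 ways to divide the 8 libraries (exact one-sided permutation test, p = 0.0286, the smallest this design allows). IL-17A lay 23.2 from the unstimulated libraries and IL-1β 43.5. Among the 80 genes higher with IL-1β, 66 had risen over unstimulated cells with IL-1β, 57 of them with no call for IL-17A. A fall with IL-1β was called for 32 of the 41 genes higher with IL-17A. These calls are at an adjusted p under 0.05 with no threshold on size. By that rule IL-1β raised 3.46% and lowered 3.92% of all genes tested. The same IL-1β libraries enter both comparisons, which favours this outcome, so these counts are a description.

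The genes that IL-1β moved were then asked for one by one. IL-1β raised 140 genes past both thresholds (1.47% of the genes tested) and lowered 124 (1.3%), against 23 raised (0.242%) and 20 lowered (0.21%) by IL-17A. Here a gene counts as moved by IL-17A when its change from unstimulated had an adjusted p under 0.05 in the same direction, with no threshold on size. By that rule 25 of the 140 raised genes (17.9%) and 23 of the 124 lowered genes (18.5%) were moved by IL-17A. Over all genes tested at that threshold IL-17A raised 57 (0.599%) and lowered 88 (0.925%), and IL-1β raised 329 (3.46%) and lowered 373 (3.92%). These counts are a description, because both comparisons share the unstimulated libraries. Calls by IL-17A depended on the fit and on single libraries. They were 40 of 135 raised genes when the 3 groups were fitted alone and 58 of 160 raised and 36 of 150 lowered genes when all genes with any count were tested. Without unstimulated replicate 2 they were 15 of 124 raised and 11 of 107 lowered genes, and 12 of the 25 and 8 of the 23 stood in each of the 12 fits with 1 library left out.

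The size of the IL-17A change was taken in 2 ways. The first was the log2 change with IL-17A as a share of the log2 change with IL-1β, both from unstimulated. Its median was 40.0% over the 140 raised genes (interquartile range 23.2% to 57.9%), with 35.2% to 41.9% across the 4 IL-17A replicates, and 43.6% over the 124 lowered genes, with 39.2% to 51.3% across replicates. The genes were chosen for a large IL-1β change, which the share does not correct for. Without unstimulated replicate 4 the median of the raised genes was 47.7%. IL-17A went the same way as IL-1β in 125 of the 140 raised and 113 of the 124 lowered genes, and IL-17A exceeded IL-1β in log2 size in 1 and 5 of them. Both changes subtract the same unstimulated libraries, which favours the same sign and a share above 0. The share of same signs over all genes tested was not counted, so these counts are a description. By size of the IL-1β rise the median share was 38.4% over the 35 genes raised by 1.5 to 2 on the log2 scale, 44.7% over the 48 raised by 2 to 3, 47.1% over the 16 raised by 3 to 4 and 34.6% over the 41 raised by more than 4, with no steady order.

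The second was the direct test, which placed 75 of the 140 raised genes (53.6%) and 45 of the 124 lowered genes (36.3%) nearer to unstimulated with IL-17A than with IL-1β, and none beyond the IL-1β level. The genes were chosen for a large change in the same IL-1β libraries that the direct test uses. That choice favours falling short of IL-1β, so these counts are a description too. Together the rules gave 4 classes. Among raised genes, 11 were moved by IL-17A and not told apart from IL-1β, 14 were moved and fell short, 61 were not moved and fell short, and 54 were neither moved nor told apart. Among lowered genes these numbers were 15, 8, 37 and 64. The 54 raised and 64 lowered genes that passed neither test are undecided at this depth, since failing both shows neither a response nor its absence.

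**Figure D1:**
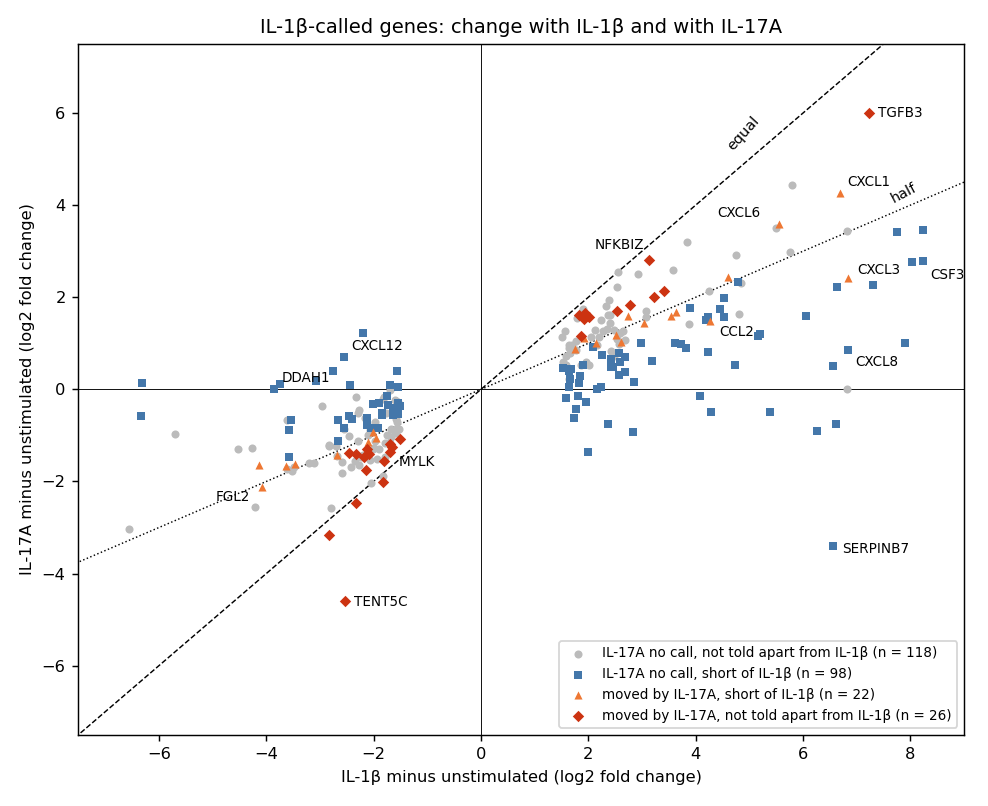
Log2 change from unstimulated with IL-1β (horizontal axis) and with IL-17A (vertical axis) for the 140 genes raised and 124 lowered by IL-1β, 1 point per gene, coloured by the 4 classes. Points lie mostly between the line of equal change and the horizontal axis, and 238 of the 264 go the same way with both cytokines. Both axes share the unstimulated libraries, which favours the same sign. Fitted changes of genes near 0 counts in a group are not precise.

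NFKBIZ, which encodes the IL-17A co-activator IκBζ, was raised by IL-17A to a level not told apart from that with IL-1β. It measured 5.88, 7.29, 14.1 and 13.7 CPM in unstimulated replicates 1 to 4, then 85.8, 67.9, 48.9 and 82.1 CPM with IL-17A and 70.1, 92.1, 95.3 and 97.3 CPM with IL-1β. The cytokine groups overlapped and both lay above every unstimulated library. Its log2 change was 2.81 ± 0.37 (SE, n = 4) with IL-17A (adjusted p = 4.15e-06) and 3.12 ± 0.37 with IL-1β (adjusted p = 2.63e-08). The level with IL-17A was 80.5% of the level with IL-1β (95% interval 51.3% to 126%, adjusted p = 0.777), so a shortfall to near 51.3% is not excluded by these data. Its call stood in all 12 fits with 1 library left out.

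A further group of genes was moved by IL-17A to levels not told apart from IL-1β. TGFB3 was at 0 in every unstimulated library, at 0.780 to 12.5 CPM with IL-17A and at 7.57 to 15.9 CPM with IL-1β. Its level share was 42.7% (13.1% to 139%) and its IL-17A call had an adjusted p of 0.0217. It stayed among the genes raised by both in 8 of the 12 fits with 1 library left out. DDX10, a nucleolar RNA helicase, rose to 76.4 to 111 CPM with IL-17A and 111 to 143 CPM with IL-1β from 22.5 to 44.3 CPM, a level share of 72.7% (51.3% to 103%). AKR1C1, an aldo-keto reductase that shares much of its sequence with its neighbours AKR1C2 and AKR1C3, reached 121 to 140 CPM with IL-17A and 219 to 243 CPM with IL-1β, and the groups did not overlap although the direct test was not passed (level share 55.6%, 36.9% to 83.7%, adjusted p = 0.114). NAMPT, the rate-limiting enzyme of the NAD salvage pathway, measured 639 to 860 CPM with IL-17A and 1245 to 1612 CPM with IL-1β against 125 to 313 CPM unstimulated (51.6%, 32.5% to 81.9%). FAM110B measured 89.7 to 107 CPM with IL-17A and 197 to 301 CPM with IL-1β (41.8%, 23.9% to 73.0%). IER3, an early-response gene, was at 27.0 to 41.3 CPM and 47.9 to 112 CPM (43.1%, 24.9% to 74.7%), and its IL-17A call was lost without unstimulated replicate 2. For AKR1C1, NAMPT, FAM110B and IER3 the whole interval, which is not corrected for the 9513 genes tested, lay below 100%. They did not pass the corrected direct test, so whether these levels differ stays undecided. TFPI2, a protease inhibitor, measured 2119 to 2526 CPM with IL-17A and 2137 to 3180 CPM with IL-1β (86.3%, 49.6% to 150%). Its IL-17A call (adjusted p = 0.0253) was lost without unstimulated replicate 1 or 2 or without IL-17A replicate 2 or 4. DDX10, AKR1C1 and TFPI2 lie outside the rule for named genes and were picked after their values were seen.

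At a smaller fold change, ADAMTS5, an aggrecan-degrading protease, had an interval around 100%. It measured 167, 205, 270 and 297 CPM unstimulated, 494, 563, 396 and 544 CPM with IL-17A and 497, 599, 427 and 414 CPM with IL-1β. The cytokine groups overlapped and lay above every unstimulated library. The level with IL-17A was 103% of that with IL-1β (76.2% to 140%). Both cytokines passed the test, with log2 changes of 1.09 ± 0.22 and 1.04 ± 0.22, below the threshold of 1.5 that defines the 264 genes.

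The 6 chemokines with an ELR motif, which draw neutrophils through CXCR1 and CXCR2, spanned a wide range of shares. For this and the other gene lists, calls are at an adjusted p under 0.05 with no threshold on size. All 6 rose with IL-1β and all 6 were lower with IL-17A than with IL-1β, while IL-17A raised 3 of them, CXCL1, CXCL3 and CXCL6. The median log2 change of the 6 was 6.76 with IL-1β and 2.35 with IL-17A, beside -0.00768 and -0.0169 over all genes tested. The genes sit together on chromosome 4 (GRCh38, from CXCL8 at 73740519 to CXCL2 at 74099196). CXCL1, CXCL2 and CXCL3, like CXCL5 and CXCL6, are close relatives, and the counting could have divided some of their reads wrongly.

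CXCL6 came nearest to IL-1β of the 6. It measured 120, 105, 165 and 225 CPM unstimulated, 2026, 1854, 1669 and 1872 CPM with IL-17A and 8727, 8416, 5770 and 5951 CPM with IL-1β. The 3 groups did not overlap, and the level with IL-17A was 25.7% of that with IL-1β (18.0% to 36.6%, adjusted p = 4.69e-07). Its log2 change with IL-17A, 3.59 ± 0.27, was 64.7% of that with IL-1β, 5.55 ± 0.30.

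CXCL1 behaved alike on both scales. It measured 44.1, 29.2, 28.1 and 166 CPM unstimulated, 1208, 1202, 1332 and 1374 CPM with IL-17A and 7406, 6624, 6608 and 6775 CPM with IL-1β. The level share was 18.7% (11.4% to 30.6%, adjusted p = 5.34e-06) and the log2 share 63.8%. Both cytokines passed the test against unstimulated cells, with log2 changes of 4.26 ± 0.39 and 6.68 ± 0.44, and the IL-17A change was 5.23 without unstimulated replicate 4.

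CXCL5, the nearest relative of CXCL6, did not follow it. It measured 1.47, 1.46, 18.3 and 38.3 CPM unstimulated, 13.0, 21.8, 19.2 and 28.7 CPM with IL-17A and 1179, 1271, 1377 and 1619 CPM with IL-1β. The IL-17A libraries lay within the range of the unstimulated ones. The log2 change with IL-17A was 0.51 ± 0.55 (adjusted p = 0.798), or 1.62 without unstimulated replicate 4 (adjusted p = 0.219), and the level share 1.52% (0.722% to 3.18%, adjusted p = 1.02e-10). The interval of this share and that of CXCL6 do not overlap, although the difference between the genes was not tested.

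CXCL8 had a level share near that of CXCL5 but stood differently against unstimulated cells. It measured 431, 225, 240 and 330 CPM with IL-17A and 16487, 16478, 21892 and 22930 CPM with IL-1β, a level share of 1.58% (0.448% to 5.57%, adjusted p = 9.8e-06). Its IL-17A libraries lay above unstimulated replicates 1 to 3 (19.7 to 85.1 CPM) and below replicate 4 (554 CPM). The change with IL-17A from unstimulated, 0.85 ± 0.75 on the log2 scale, did not pass the test, and without unstimulated replicate 4 it was 2.87 with an adjusted p of 0.0604. With all genes with any count tested, CXCL8 was called for IL-17A (adjusted p = 9.72e-05). CXCL3 measured 199, 133, 193 and 176 CPM with IL-17A and 3490, 2797, 4167 and 4478 CPM with IL-1β (4.70%, 2.05% to 10.8%), and its IL-17A call (adjusted p = 0.0209) was lost without unstimulated replicate 1 or 2, with adjusted p up to 0.126. Without unstimulated replicate 4 the change of CXCL3 was 4.39 in place of 2.43 (adjusted p = 3.6e-05). CXCL2 measured 0.490, 0, 0 and 25.3 CPM unstimulated, 19.9, 21.1, 52.9 and 29.3 CPM with IL-17A and 869, 762, 1079 and 1247 CPM with IL-1β. The adjusted p of CXCL2 for IL-17A was 0.0961 with all libraries, 0.000207 without unstimulated replicate 4 and 9.31e-11 when all genes with any count were tested, while the level share stayed at 3.07% and 3.06%.

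**Figure D2:**
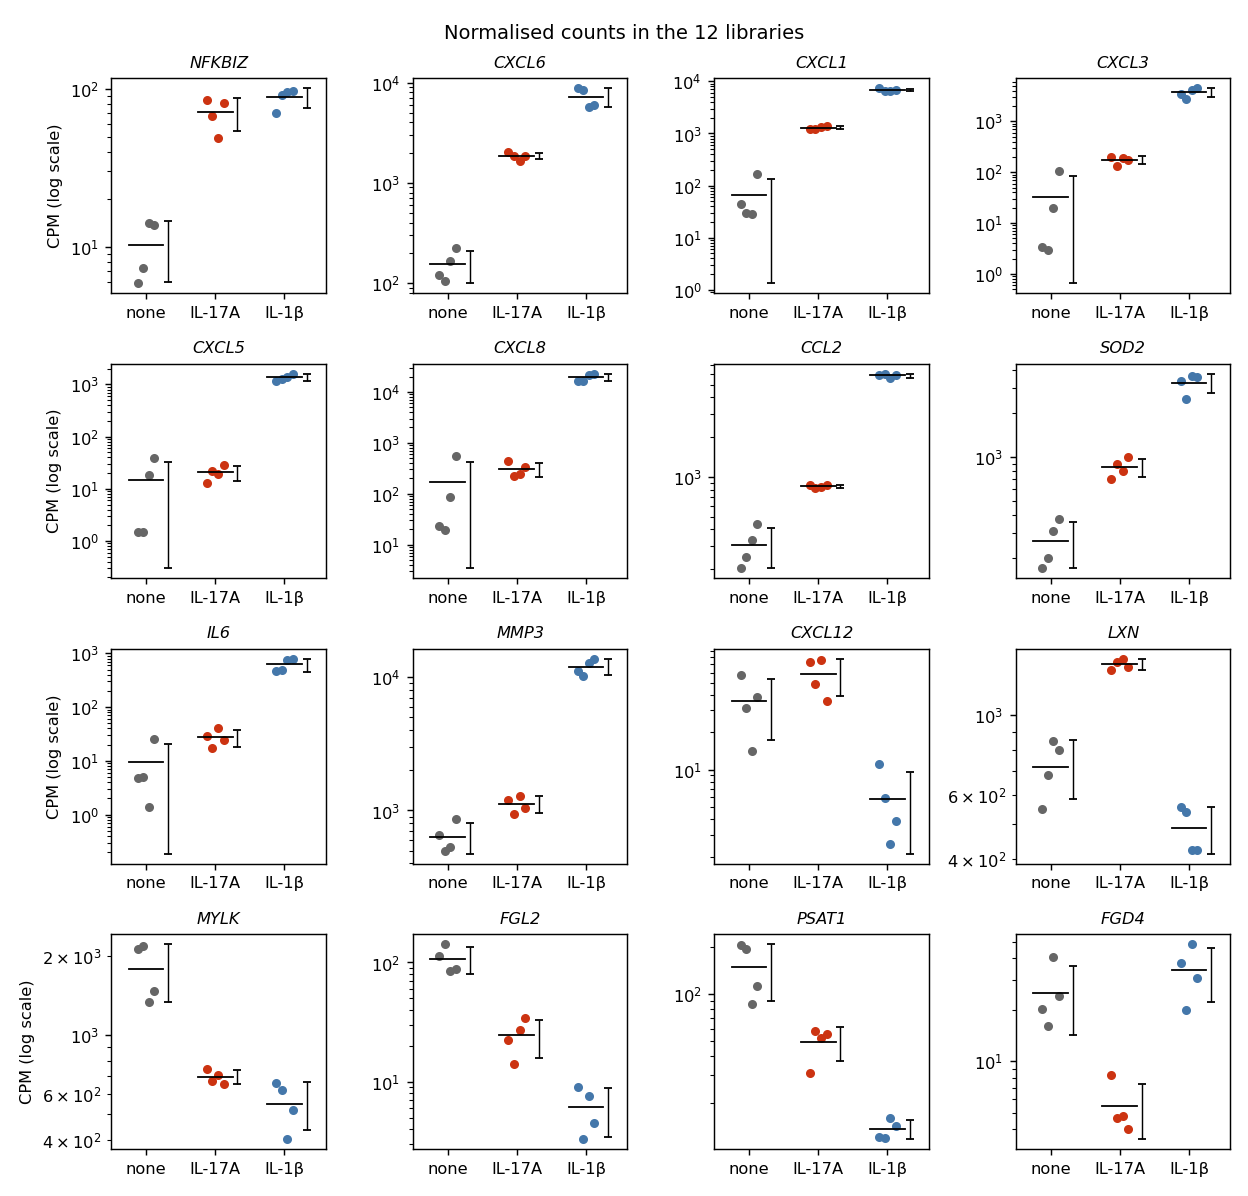
Normalised counts (CPM, log scale) of 16 genes in the 4 unstimulated, 4 IL-17A and 4 IL-1β libraries, with points for libraries, a line for the group mean and a bar for the mean ± SD (where the SD reaches the mean, as for unstimulated CXCL5 and CXCL8, the lower end stops just above 0). For NFKBIZ the cytokine groups overlap, for CXCL6 and CXCL1 the IL-17A points form a separate middle level, and for CXCL5 they lie among the unstimulated points; one unstimulated library of CXCL8 is at 554 CPM.

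The start-site regions of these genes are shown because both signals end at NF-κB, whose subunits bind motifs of this kind. The letters GGAATTTCC, read on either strand, were searched in windows from 250 bases before to 50 after the RefSeq start (GRCh38.p14, 1 or more windows per gene). They occurred in 0.56% of the 27305 gene symbols, in 0.716% of the 7824 tested genes with a window, in 13 of 108 genes raised by IL-1β and in 1 of 95 lowered. Each run below is 59 bases, 5′ to 3′ on the gene's strand, with the matched letters in capitals. In NFKBIA, the gene of the NF-κB inhibitor IκBα, the match reads as the reverse complement GGAAATTCC.
NFKBIZ, chr3:101827743-101827801, plus strand: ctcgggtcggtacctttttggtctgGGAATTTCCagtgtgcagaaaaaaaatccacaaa
NFKBIA, chr14:35404797-35404855, minus strand: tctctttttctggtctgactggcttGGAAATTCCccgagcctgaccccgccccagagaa
CXCL6, chr4:73836564-73836622, plus strand: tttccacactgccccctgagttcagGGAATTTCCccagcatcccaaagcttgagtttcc
CXCL5, chr4:73998734-73998792, minus strand: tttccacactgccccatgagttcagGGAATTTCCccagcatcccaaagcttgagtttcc
CXCL1, chr4:73869290-73869348, plus strand: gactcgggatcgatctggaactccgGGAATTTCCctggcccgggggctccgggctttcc
CXCL3, chr4:74038734-74038792, minus strand: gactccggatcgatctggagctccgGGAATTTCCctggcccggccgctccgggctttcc
CXCL2, chr4:74099239-74099297, minus strand: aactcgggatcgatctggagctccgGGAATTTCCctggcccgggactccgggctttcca
CXCL8, chr4:73740453-73740511, plus strand: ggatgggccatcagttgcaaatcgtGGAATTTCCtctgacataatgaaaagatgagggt

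All 6 ELR chemokines, NFKBIZ and NFKBIA held the match, at level shares from 1.52% for CXCL5 to 80.5% for NFKBIZ. The runs of CXCL6 and CXCL5 differ at 1 of 59 bases, while their level shares were 25.7% and 1.52%. CXCL1 and CXCL3 differ at 4 of 59 bases, with level shares of 18.7% and 4.70%. Among the IL-1β-raised genes with a window, the match was in 1 of 8 genes moved and not told apart, 4 of 12 moved and short, 5 of 45 not moved and short, and 3 of 43 of the rest. A match is a string of letters in this window and no evidence of binding in these cells.

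Of the other chemokines, 10 were tested, and 4 were higher with IL-1β and 1 higher with IL-17A, with a median direct difference of -1.52 on the log2 scale beside 0.000663 over all genes. CCL2, which draws monocytes, measured 204 to 439 CPM unstimulated, 821 to 867 CPM with IL-17A and 5580 to 6042 CPM with IL-1β, without overlap. Its level share was 14.5% (10.1% to 20.7%) and its log2 change with IL-17A 1.48 ± 0.25 (adjusted p = 0.000463). CCL7, its neighbour on chromosome 17, was at 56.9 to 71.8 CPM with IL-17A and 239 to 351 CPM with IL-1β, a share of 22.4% (12.0% to 41.8%). CCL20, which draws CCR6-bearing cells that include IL-17-producing T cells, measured 0.928, 0, 0 and 4.02 CPM with IL-17A and 108, 101, 246 and 244 CPM with IL-1β. The IL-17A libraries of CCL20 were near the floor, and their change from unstimulated did not pass the test (adjusted p = 0.869). CXCL10, a chemokine for CXCR3, was at 0 to 9.76 CPM with IL-17A and 27.9 to 58.4 CPM with IL-1β, and the direct call (adjusted p = 0.0105) was lost without IL-17A replicate 2 (adjusted p = 0.0544).

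CXCL12, the homeostatic CXCR4 ligand of stromal cells, ran the opposite way. It measured 57.8, 31.3, 14.1 and 38.3 CPM unstimulated, 73.3, 48.4, 75.3 and 35.6 CPM with IL-17A and 11.1, 5.97, 2.54 and 3.89 CPM with IL-1β. The IL-17A and unstimulated libraries overlapped, and every IL-1β library lay below both. The level with IL-17A was 948% of that with IL-1β (504% to 1780%, adjusted p = 2.32e-06). The log2 change from unstimulated was -2.54 ± 0.46 with IL-1β (adjusted p = 8.61e-05) and 0.70 ± 0.38 with IL-17A (adjusted p = 0.469).

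None of the 12 secreted cytokines and colony-stimulating factors tested was called for IL-17A by edgeR over all 44 libraries. IL-1β raised 10 of them, and the same 10 were higher with IL-1β in the direct test, with a median direct difference of -3.47. IL6 measured 4.90, 5.10, 1.41 and 26.0 CPM unstimulated, 29.2, 17.2, 40.9 and 24.7 CPM with IL-17A and 463, 490, 753 and 778 CPM with IL-1β. The level share of IL6 was 4.51% (2.28% to 8.91%). Its change with IL-17A, 1.59 ± 0.54, had an adjusted p of 0.147, of 0.00805 without unstimulated replicate 4 and of 3.94e-05 with all genes tested. IL11 was at 7.21 to 19.5 CPM with IL-17A and 51.7 to 124 CPM with IL-1β (16.6%, 9.00% to 30.6%). IL33, an alarmin of stromal nuclei, was at 191 to 333 CPM and 1650 to 2016 CPM (14.9%, 9.59% to 23.1%), and every IL-17A library lay above the unstimulated range of 88.9 to 176 CPM. The change of IL33 with IL-17A had an adjusted p of 0.102, which was 0.0348 with DESeq2, 0.0143 with the 3 groups fitted alone and 9.75e-05 with all genes tested.

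The transcript of IL1B itself was at 37.7 to 99.1 CPM with IL-17A and 317 to 670 CPM with IL-1β (12.9%, 5.58% to 29.9%), and its change with IL-17A had an adjusted p of 0.261, and of 3.08e-07 with all genes tested. LIF had the smallest direct difference of the called cytokines, at 6.32 to 9.36 CPM against 15.9 to 34.3 CPM, and its call (adjusted p = 0.0432) was lost under 7 of the 8 fits without one IL-17A or IL-1β library. CSF3 and CSF2, which drive granulocyte and myeloid growth, were at 0 to 5.61 and 0 to 1.15 CPM with IL-17A and at 93.5 to 170 and 31.2 to 84.3 CPM with IL-1β. IL23A was at 0, 2.34, 0 and 0 CPM with IL-17A and 7.29 to 34.4 CPM with IL-1β. For IL23A and CSF2 no IL-17A library held more than 3 counts, so a small response was not detectable at this depth. Outside the list, other genes with large direct differences were also near 0 with IL-17A. SERPINB7 was at 0 in all 4 IL-17A libraries and at 70.6 to 112 CPM with IL-1β, C15orf48 at 0 to 1.39 and 74.7 to 112 CPM, BCL2A1 at 0 to 9.28 and 63.6 to 190 CPM, and SERPINB2 at 0 to 4.01 and 15.2 to 45.1 CPM. None of these 4 was called for IL-17A, and with DESeq2 the direct call of SERPINB2 was lost (adjusted p = 0.295).

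Feedback genes of NF-κB were raised by IL-1β in 6 of 9 tested and by IL-17A in 1, NFKBIA. NFKBIA measured 21.5 to 71.1 CPM unstimulated, 86.7 to 93.6 CPM with IL-17A and 239 to 298 CPM with IL-1β, a share of 33.6% (23.7% to 47.8%). Its IL-17A call (adjusted p = 0.0256) was lost without unstimulated replicate 1 or 2 or without IL-17A replicate 2, 3 or 4, with adjusted p up to 0.172. BIRC3, an inhibitor of apoptosis, measured 7.88, 8.58, 3.21 and 0 CPM with IL-17A and 244, 238, 351 and 347 CPM with IL-1β, and its IL-17A libraries overlapped the unstimulated range of 0.704 to 23.9 CPM. BIRC2 was 40.2 to 80.1 CPM with IL-17A and 128 to 178 CPM with IL-1β, and NFKB1 3.21 to 10.3 and 27.8 to 35.8 CPM. None of BIRC2, BIRC3 and NFKB1 changed with IL-17A by the test (adjusted p = 0.87, 0.879 and 0.726). TNFAIP3, which encodes the deubiquitinase A20, was at 0 to 8.01 CPM with IL-17A and 18.7 to 35.6 CPM with IL-1β, and its direct call (adjusted p = 0.032) was lost in 6 of the fits without one library.

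Genes known as IL-17 targets in other cells were often below the filter on low counts. Of these 17 genes 8 were tested, 3 rose with IL-1β and 1, NFKBIZ, rose with IL-17A. LCN2, SAA1, DEFB4A, S100A8 and S100A9 had 0 counts in all 12 libraries. STEAP1, a metalloreductase, was at 20.4 to 44.9 CPM with IL-17A and 121 to 151 CPM with IL-1β (25.0%, 16.7% to 37.4%). TNFAIP6, which binds hyaluronan, was at 105 to 161 and 367 to 582 CPM (26.2%, 16.8% to 40.8%). Neither changed with IL-17A from unstimulated by the test (adjusted p = 0.415 and 0.586).

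Among 16 tested metalloproteinases, inhibitors and plasminogen genes, 7 rose and 2 fell with IL-1β, 1 rose and 2 fell with IL-17A, and 5 were higher with IL-1β than with IL-17A. MMP3 (stromelysin-1) measured 649, 499, 534 and 861 CPM unstimulated, 1196, 935, 1294 and 1041 CPM with IL-17A and 11170, 10138, 12851 and 13744 CPM with IL-1β. Every IL-17A library lay above the unstimulated ones, but the change of 0.81 ± 0.32 was not called (adjusted p = 0.234), and the level share was 9.32% (5.76% to 15.1%). MMP10 gave 13.2% (7.89% to 22.0%) and MMP1, the interstitial collagenase, 20.9% (14.5% to 30.1%), with log2 changes with IL-17A of 0.90 ± 0.35 and 0.32 ± 0.25. MMP12 was at 3.21 to 17.2 CPM with IL-17A, overlapping the unstimulated range of 2.81 to 16.0 CPM, and at 190 to 256 CPM with IL-1β. These 4 genes, neighbours on chromosome 11, rose with IL-1β, and none was called for IL-17A by edgeR over all 44 libraries. MMP3 was called with the 3 groups fitted alone (adjusted p = 0.0255), and MMP3 and MMP10 when all genes were tested (0.000394 and 0.000289). TIMP1 measured 1768 to 2848 CPM with IL-17A and 2157 to 2577 CPM with IL-1β (85.0%, 63.6% to 114%), and TIMP3, an inhibitor bound to matrix, fell with both to 56.3 to 115 and 53.4 to 64.3 CPM from 122 to 436 CPM. The IL-17A call of TIMP3 (adjusted p = 0.0148) was lost in 4 fits without one library.

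Of 8 prostaglandin genes tested, 3 rose with IL-1β and none was called for IL-17A by edgeR over all 44 libraries. PTGS2, the inducible cyclooxygenase, measured 20.6, 43.7, 126 and 193 CPM unstimulated, 320, 310, 252 and 388 CPM with IL-17A and 1550, 1713, 2598 and 2437 CPM with IL-1β. The 3 groups did not overlap. The change with IL-17A was 1.74 ± 0.60 (adjusted p = 0.154) and the level share 15.3% (6.66% to 35.3%). PTGES and PLA2G4A, which act after and before it in prostaglandin E2 synthesis, had level shares of 38.7% (19.5% to 76.6%) and 49.6% (29.2% to 84.2%), with neither the direct nor the IL-17A test passed. All 3 were called for IL-17A when the 12 libraries of these 3 groups were fitted alone (adjusted p = 0.029 for PTGS2, 0.0406 for PTGES and 0.00776 for PLA2G4A). The DESeq2 Wald test also called PTGES and PLA2G4A (adjusted p = 0.0306 and 0.0319).

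Of 10 antioxidant, zinc and metabolic genes tested, IL-1β raised 9 and IL-17A raised 3, SOD2, MT2A and NAMPT, and the median log2 changes were 1.98 and 1.26. SOD2, the mitochondrial superoxide dismutase, measured 171, 202, 308 and 375 CPM unstimulated, 709, 891, 800 and 1000 CPM with IL-17A and 3351, 2512, 3605 and 3587 CPM with IL-1β, with no overlap. Its level share was 26.0% (17.8% to 38.2%), and its log2 change with IL-17A, 1.69 ± 0.27, was 46.5% of that with IL-1β. MT2A, a metallothionein with close copies, had a share of 54.4% (41.4% to 71.5%). SLC39A14, a zinc and iron importer, was not moved by IL-17A, at 10.1 to 40.8 CPM against 15.7 to 26.4 CPM unstimulated and 94.7 to 115 CPM with IL-1β (adjusted p = 0.992 for IL-17A). KYNU, a kynurenine pathway enzyme, was at 52.9 to 58.4 CPM with IL-17A and 50.5 to 71.6 CPM with IL-1β (84.5%, 46.0% to 155%), and its IL-17A change had an adjusted p of 0.0825, which fell under 0.05 in 5 alternatives, among them DESeq2 (0.0241) and the 3 groups fitted alone (0.0115). IL13RA2, the decoy receptor for IL-13, and H2AC19, a histone gene with near-identical copies, lay outside this list at shares of 25.8% (14.2% to 46.9%) and 45.1% (31.0% to 65.4%), and the IL-17A call of IL13RA2 (adjusted p = 0.0478) was lost in 10 alternatives. DIO2, the deiodinase that activates thyroid hormone, rose to 1317 to 1780 CPM with IL-17A and 4345 to 4953 CPM with IL-1β from 405 to 671 CPM (33.2%, 23.0% to 47.7%).

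**Figure D3:**
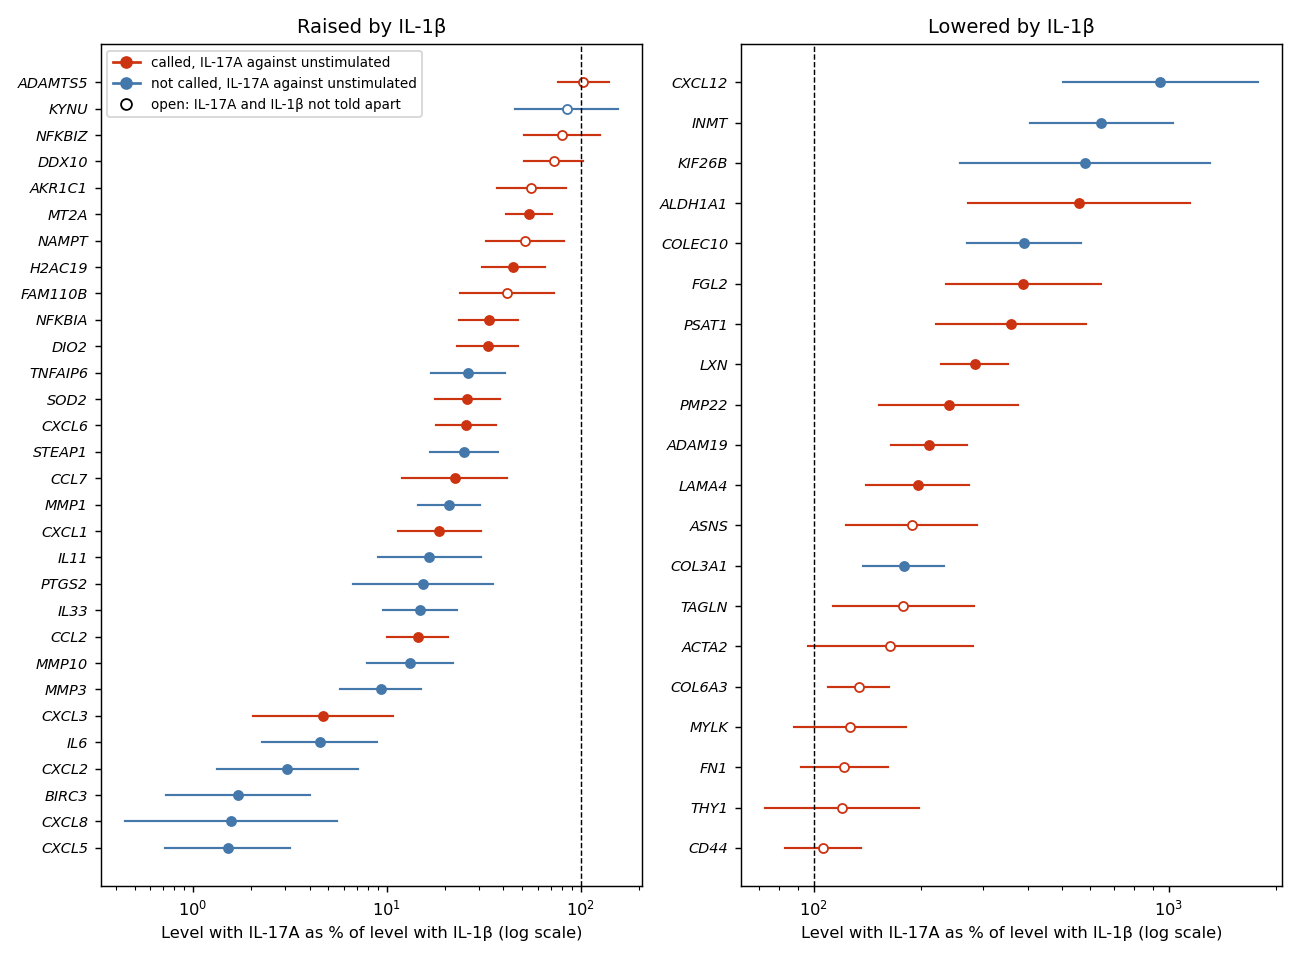
Level with IL-17A as a percentage of the level with IL-1β for 30 genes raised and 20 lowered by IL-1β (points, with 95% intervals from the direct comparison; log scale; the dashed line is 100%). Red points are genes called for IL-17A against unstimulated and blue points are not, and open points are not told apart in the direct test. Among the genes shown, which are a selection, raised genes run from 1.52% for CXCL5 to 103% for ADAMTS5, and lowered genes from 106% for CD44 to 948% for CXCL12. Genes not shown can lie beyond these ranges, for example CCL20 at 0.832% and TMEM131L at 951%.

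Of 13 contractile genes tested, 7 fell with IL-1β, 4 fell with IL-17A and none was called in the direct test, with median log2 changes of -1.51 and -0.916. MYLK, the myosin light chain kinase, measured 2134, 2181, 1333 and 1473 CPM unstimulated, 744, 673, 709 and 650 CPM with IL-17A and 661, 617, 403 and 519 CPM with IL-1β. The level of MYLK with IL-17A was 126% of that with IL-1β (87.8% to 181%, adjusted p = 0.664), and its IL-17A call stood in all 12 fits without one library. ACTA2, smooth muscle actin, measured 853, 636, 254 and 354 CPM unstimulated, 162 to 210 CPM with IL-17A and 79.1 to 147 CPM with IL-1β. No IL-17A library of ACTA2 overlapped the unstimulated or the IL-1β libraries, and the level share was 164% (96.1% to 280%). TAGLN was at 94.8 to 200 CPM with IL-17A and 66.3 to 94.4 CPM with IL-1β from 222 to 612 CPM. The IL-17A calls of ACTA2, TAGLN and TPM1 (adjusted p = 0.0312, 0.0244 and 0.0343) were each lost without unstimulated replicate 1 or 2. Those of ACTA2 and TPM1 were also lost without any single IL-17A replicate, and that of TAGLN without IL-17A replicate 1, 2 or 4. The adjusted p reached 0.21, 0.257 and 0.205 over all alternatives. Reads of ACTA2 and its antisense gene ACTA2-AS1 cannot be told apart, since the use of strand is not stated.

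Of 16 collagen and matrix genes, 6 fell and 2 rose with IL-1β, and 2, COL6A3 and FN1, fell with IL-17A. COL3A1, a fibrillar collagen, was the one called higher with IL-17A in the direct test. It measured 2050, 2656, 3113 and 2553 CPM unstimulated, 2345, 2400, 2175 and 2283 CPM with IL-17A and 1265, 1734, 1199 and 943 CPM with IL-1β. The IL-17A libraries of COL3A1 lay inside the unstimulated range and above every IL-1β library (179%, 138% to 233%, adjusted p = 0.00356). COL1A1 had a share of 230% (139% to 380%) and just missed the direct threshold (adjusted p = 0.0512). Its direct difference was called in 9 of 18 alternatives, with adjusted p up to 0.18 in the others. FN1, fibronectin, fell to 605 to 742 CPM with IL-17A and 488 to 604 CPM with IL-1β from 972 to 1419 CPM (122%, 92.0% to 162%). Its IL-17A call was lost without unstimulated replicate 1 or 2 and also without any single IL-17A replicate (adjusted p up to 0.147). ELN, elastin, was the one matrix gene higher with IL-1β, at 0 to 2.30 CPM with IL-17A and 8.07 to 17.8 CPM with IL-1β. COL7A1 rose with IL-1β to 16.6 to 41.3 CPM from 7.74 to 13.2 CPM and was at 7.80 to 13.6 CPM with IL-17A (adjusted p = 0.053 in the direct test).

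Leukocyte adhesion and activation markers gave no direct call among 6 tested. THY1, a surface marker of fibroblasts, fell to 26.4 to 47.3 CPM with IL-17A and 20.5 to 39.9 CPM with IL-1β from 63.5 to 181 CPM, and CD44, a hyaluronan receptor, fell to 235 to 296 and 236 to 272 CPM from 291 to 535 CPM. The level shares were 120% (73.1% to 198%) and 106% (82.8% to 135%). The IL-17A calls rested on few libraries, with THY1 lost without unstimulated replicate 1 (181 CPM) or IL-17A replicate 4 and CD44 lost in most alternatives. ICAM1 rose with IL-1β to 1.27 to 8.43 CPM from 0 in every unstimulated library, and with IL-17A only replicate 3 held any, 8.01 CPM.

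The lowered genes also held a set that IL-17A moved part of the way. FGL2, a secreted fibrinogen-like protein, measured 114, 142, 85.1 and 87.4 CPM unstimulated, 22.3, 14.0, 27.2 and 34.5 CPM with IL-17A and 9.08, 3.31, 7.62 and 4.54 CPM with IL-1β. PSAT1, an enzyme of serine synthesis, measured 206, 195, 86.5 and 113 CPM, then 31.1, 57.7, 52.1 and 55.7 CPM, then 12.1, 11.9, 15.9 and 14.3 CPM in the same order. For both genes the 3 groups did not overlap, and the level with IL-17A was 389% (235% to 644%) and 359% (221% to 584%) of that with IL-1β. The log2 changes with IL-17A, -2.12 ± 0.29 and -1.62 ± 0.31, were 51.9% and 46.8% of those with IL-1β. ADAM19, a membrane protease, was at 158 to 218 CPM with IL-17A and 65.4 to 123 CPM with IL-1β from 279 to 464 CPM (211%, 165% to 271%), and was named after its values were seen. LAMA4, a laminin chain, and PMP22 had level shares of 196% (141% to 274%) and 240% (153% to 376%), and their direct calls were lost without IL-1β replicate 4, for PMP22 also without replicate 3. ASNS, asparagine synthetase, fell to 36.2 to 59.4 CPM with IL-17A and 20.2 to 35.7 CPM with IL-1β from 102 to 154 CPM (189%, 123% to 289%, adjusted p = 0.0946). ALDH1A1, a retinaldehyde dehydrogenase, was at 23.4 to 34.3 CPM with IL-17A and 3.31 to 6.56 CPM with IL-1β. Its IL-17A call was lost without unstimulated replicate 1 or 2 and also without any single IL-17A replicate (adjusted p up to 0.328).

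Of the 41 genes higher with IL-17A than with IL-1β, 34 had no call for IL-17A against unstimulated cells, and 27 of these had fallen with IL-1β. The same IL-1β libraries enter both comparisons, which favours a fall with IL-1β. INMT, a methyltransferase, measured 42.6, 56.1, 65.4 and 73.8 CPM unstimulated, 41.7, 38.2, 24.0 and 24.1 CPM with IL-17A and 8.07, 2.65, 1.27 and 7.13 CPM with IL-1β. TMEM131L, KIF26B and ADH1B had 13.2 to 28.8, 14.0 to 21.6 and 15.6 to 28.7 CPM with IL-17A, and 0.649 to 5.30, 1.27 to 5.19 and 0 to 5.05 CPM with IL-1β. The change with IL-17A was not called by edgeR for any of these 4 (adjusted p = 0.0868, 0.949, 0.97 and 0.883), although every IL-17A library of INMT lay below the unstimulated ones and DESeq2 called it (adjusted p = 0.0199). DDAH1, which degrades inhibitors of nitric oxide synthase, measured 240, 159, 136 and 94.2 CPM with IL-17A and 0, 45.1, 0 and 0 CPM with IL-1β. One IL-1β library sets the fitted difference of DDAH1, 3.86 with all libraries and 10.8 without IL-1β replicate 2, when every IL-1β library is at 0 and the fitted value is no bound. CABCOCO1 was at 0 in all 4 IL-1β libraries and at 3.90 to 12.0 CPM with IL-17A, beside 0.683 to 9.15 CPM unstimulated.

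LXN, which encodes latexin, a carboxypeptidase inhibitor, was the 1 gene of the direct comparison that IL-1β lowered and IL-17A raised. It measured 548, 681, 849 and 800 CPM unstimulated, 1329, 1404, 1430 and 1360 CPM with IL-17A and 558, 540, 423 and 424 CPM with IL-1β. Every IL-17A library was above every other library. The log2 change was 0.94 ± 0.15 with IL-17A (adjusted p = 0.000289) and -0.57 ± 0.15 with IL-1β (adjusted p = 0.0128), and the direct difference was 1.51 ± 0.16 (adjusted p = 3.17e-09). The IL-1β call was lost in 4 fits without one library. COLEC10, a collectin, was at 191 to 373, 396 to 554 and 107 to 139 CPM in the same order, and its change with IL-17A had an adjusted p of 0.115, which was 0.0476 with DESeq2 and 0.0336 with the 3 groups fitted alone. LXN and COLEC10 were named after their values were seen.

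Read the other way, IL-17A raised 23 genes and lowered 20 past both thresholds, and IL-1β moved 18 and 12 of them the same way and none the opposite way. The other 5 raised and 8 lowered genes had no call for IL-1β. The IL-1β calls here are at an adjusted p under 0.05 with no threshold on size. By that rule IL-1β raised 3.46% and lowered 3.92% of all genes tested. Both comparisons share the unstimulated libraries, which favours calls in the same direction, so these counts are a description. Of the raised ones, SST was at 10.7 to 36.8 CPM with IL-17A and 3.81 to 10.1 CPM with IL-1β. In the same order JUNB was at 0 to 18.4 and 0 to 3.24 CPM, and NLRC5 at 5.10 to 16.8 and 3.24 to 10.8 CPM. SST, JUNB and NLRC5 did not pass the direct test (adjusted p = 0.208, 0.145 and 0.494). FGD4, a Cdc42 exchange factor, was called lower with IL-17A and had no call for IL-1β. It measured 20.1, 16.0, 40.8 and 23.9 CPM unstimulated, 8.35, 4.68, 4.81 and 4.02 CPM with IL-17A and 37.3, 19.9, 48.3 and 30.5 CPM with IL-1β. The IL-17A libraries lay below every other library, and the direct difference was -2.59 ± 0.44 (adjusted p = 6.88e-05). NRXN3, a neurexin, measured 3.12 to 8.01 CPM with IL-17A, 14.6 to 36.2 CPM with IL-1β and 25.0 to 54.7 CPM unstimulated, and its direct call (adjusted p = 0.015) was lost in 4 fits without one library. RPRD1B was at 0.464 to 2.30 CPM with IL-17A and 6.49 to 14.6 CPM with IL-1β, and CYB561 was at 0 in all IL-17A libraries and 3.31 to 9.73 CPM with IL-1β. RIPOR3-AS1, an antisense gene whose reads cannot be told apart from those of its partner, was at 10.9 to 32.0 CPM with IL-17A and 2.65 to 5.08 CPM with IL-1β. The IL-17A calls of RPRD1B, CYB561 and RIPOR3-AS1 were each lost in several fits without one library.

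The remaining lists gave few calls. Of 16 interferon-response genes tested 1 differed in the direct test, IFIT2, at 3.25 to 31.2 CPM with IL-17A and 0 to 4.64 CPM with IL-1β, and that call (adjusted p = 0.0147) was lost in 4 fits without one library. None of 12 cell-cycle genes was called in any of the 3 comparisons, and their median direct difference was -0.072. The 8 tested IL-1 receptor and adaptor genes and the 6 tested IL-17 receptor and Act1 genes also gave no call, with median direct differences of -0.0732 and 0.612.

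**Figure D4:**
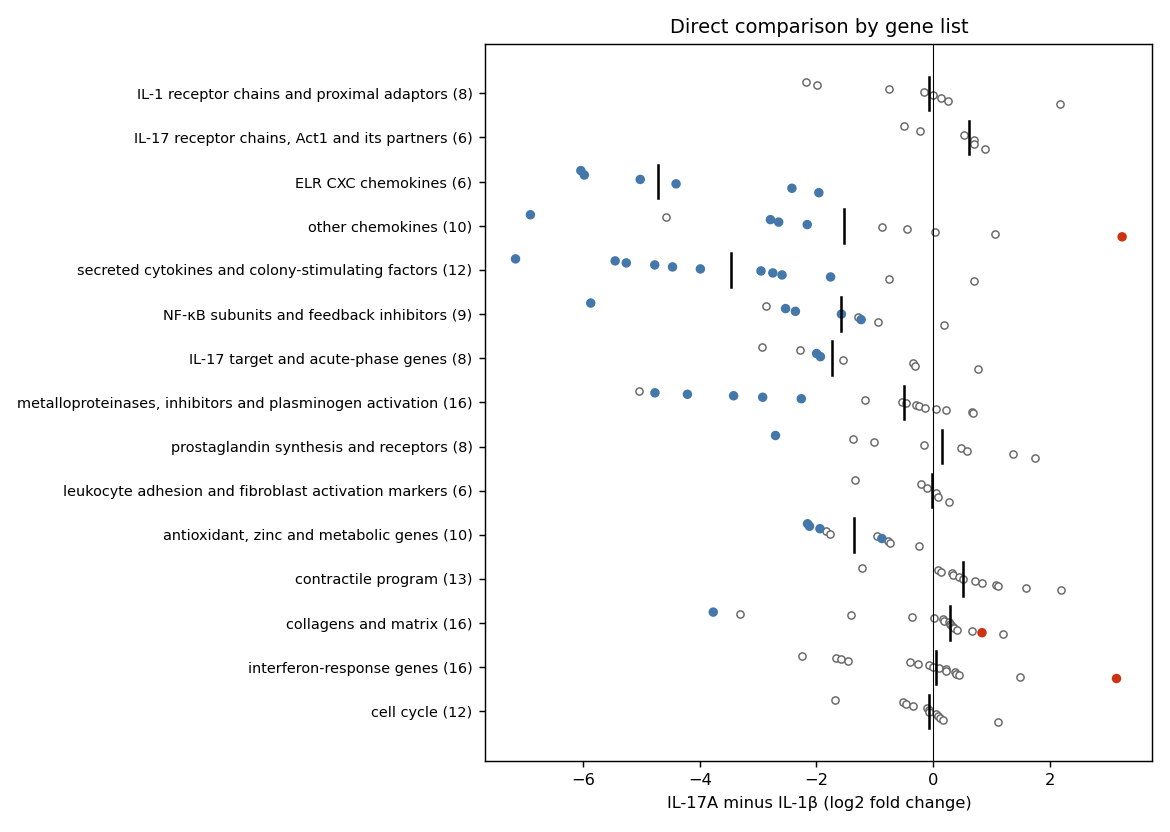
Direct log2 difference, IL-17A minus IL-1β, of the tested genes of 15 lists (number tested in brackets), 1 point per gene with a bar at the list's median. Blue points are called (adjusted p under 0.05) and higher with IL-1β, red points are called and higher with IL-17A, and open points are not called. Medians run from -4.72 for the ELR chemokines and -3.47 for the secreted cytokines to 0.514 for the contractile genes and 0.612 for the IL-17 receptor genes.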

How the data were processed

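RNA from Ccd-18Co cells was made into libraries and sequenced by the study. The authors checked reads with FastQC (version 0.11.9) and MultiQC (1.14), quantified them with kallisto (0.48.0) and deposited estimated counts per gene symbol, unscaled for depth. Of the deposited values 5.77% were not whole, and all were rounded. The transcriptome release and use of strand are not given in the sources used here. Extraction kits and sequencing providers of 2 kinds were used and are not tied to libraries.

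Groups and replicate numbers came from the labels. All 44 libraries in 11 groups were fitted together in edgeR (4.0.16, R 4.3.3) with TMM scaling and quasi-likelihood tests, on 9513 of 40663 symbols kept by filterByExpr. CPM use the scaled library sizes. The study names DESeq2, which served as an alternative (1.42.0), as did other filters, fold thresholds, fitted samples, a replicate block and leaving out each library. Standard errors are the log2 change over the root of F, with 95% intervals from the t quantile. Floors cover counting error only. Scripts were tested on simulated data. The 18 pairs of replicates all differed beyond counting noise (chi-square per degree of freedom at least 4.04). Positions are from GENCODE v44 and promoter sequences from RefSeq (GRCh38.p14). Other conditions of the series entered only the fit.

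Named genes were the members of 15 lists, the 12 genes with the largest direct difference in each direction among those without overlap between the groups and a mean log2 CPM of at least 1, up to 15 genes moved alike by both cytokines in each direction, the 8 largest IL-1β changes in each direction that IL-17A did not move, and up to 10 genes called for IL-17A alone; a few outside the rule are marked. The members and lists were chosen with earlier results of these data known.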

Additional observations from a re-analysis of the deposited data

Results flagged for a closer look

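In 33 of 285 sets of 4 libraries checked (11.6%), 1 library lay far from the other 3 by Dixon's test. The test's rate of about 1 in 20 holds for independent sets of normally distributed values. Here a set with 3 libraries at 0 and 1 above 0 is always flagged, and some genes were chosen on their values. The share is therefore a description and no measure of excess. Of these, 12 were unstimulated replicate 4. It was the high library for CXCL1 (166 CPM), CXCL2 (25.3), CXCL3 (107), CXCL8 (554), CCL20 (2.73), IL6 (26.0), CSF3 (1.37), BIRC3 (23.9), SERPINB7 (3.42), C15orf48 (3.42) and BCL2A1 (4.10), and the low one for CABCOCO1 (0.683). The first 11 of these are genes that rose with IL-1β, and the reason for their level in this library was not tested. Without it the median share of the IL-1β rise that IL-17A reached was 47.7% in place of 40.0%, and the direct comparison gave 118 calls in place of 121.

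Among the other unstimulated libraries, replicate 1 was high for TIMP1 (2061 CPM), THY1 (181), COL7A1 (13.2) and ADH1B (27.4) and low for H2AC19 (15.7), and replicate 3 was high for TNFAIP3 (4.22). With IL-17A, replicate 3 was high for TIMP1 (2848), ICAM1 (8.01), SERPINB2 (4.01) and LAMA4 (102) and low for COL1A1 (8333) and GBP1 (136). IL-17A replicate 2 was high for IL23A (2.34) and low for KIF26B (14.0), replicate 4 was high for CSF2 (1.15) and replicate 1 for C15orf48 (1.39). With IL-1β, replicate 1 had the highest total (2095807 estimated counts) and was low for KYNU (50.5 CPM), replicate 2 was high for DIO2 (4953) and DDAH1 (45.1), and replicate 3 was high for IFI6 (298).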

How the results depend on the processing

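The 121 genes called between IL-17A and IL-1β (80 and 41 by direction) became 120 with DESeq2 size factors, 143 with the DESeq2 Wald test (738 genes had no adjusted p) and 122 with a filter of 10 counts in 4 libraries. The share higher with IL-1β was 66.1% and ran from 62.9% to 72.3%. At a log2 threshold of 1 there were 207 calls, 89 of them higher with IL-17A, and with no threshold 323, 177 higher with IL-1β and 146 with IL-17A. The IL-1β-raised genes that IL-17A also raised, 25 of 140, became 58 of 160 when all genes with any count were tested, 40 of 135 when only the 3 groups were fitted, and 42 of 329 with no fold threshold. The lowered ones, 23 of 124, became 36 of 150 with all genes with any count, 47 of 244 at a log2 threshold of 1 and 63 of 373 with none. The cause was not tested beyond the construction of these settings (23518 genes tested with any count).

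Same-numbered samples of the 3 groups did not deviate together over all genes (12 correlations from -0.0857 to 0.0811), which gave no sign of pairing by number. These values cannot exclude that the numbers mark a shared culture or round, which the labels do not state. With the replicate block the raised genes moved by both were 42 of 146, and the named genes that gained an IL-17A call were CXCL2, IL1B, IL1R1, IL33, PTGS2, PLA2G4A, KYNU, MMP10 and COLEC10 (adjusted p from 0.00141 to 0.0487). The other counts and shares stayed within 1.5 times or 1 SD. With 1 library left out, calls ran from 101 (without IL-1β replicate 3) to 122, higher with IL-17A from 28 to 42, higher with IL-1β from 70 to 81, raised by both from 15 (without unstimulated replicate 2) to 28, lowered by both from 11 (without unstimulated replicate 2) to 28, the median share of the rise from 38.3% to 47.7%, of the fall from 37.3% (without IL-1β replicate 1) to 48.6%, and the distance from 33.3 to 34.9. Of 288 gene results, 198 were called, 159 of these stayed called under every alternative, 39 were lost in at least 1, and none reversed. Of the 90 not called, 35 gained a call somewhere. At this depth IL23A and CSF2 held at most 3 counts in every IL-17A library, and 9 of 17 IL-17 target genes were not tested.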
